A study of Mus musculus with 2 samples.

Results

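Cholesterol synthesis and its control were examined through 7 genes in mouse embryos, chosen by name from the 23418 rows of a deposited count table. All 7 were found in it. Hmgcs1, Fdft1, Sqle and Dhcr7 encode enzymes of the pathway. Srebf2, Scap and Insig1 encode regulators of it, a transcription factor (Srebf2) and parts of the sterol sensor (Scap and Insig1). All embryos were C57BL/6 and all were injected, one pool with siRNA to Dnmt1, which maintains DNA methylation (siDnmt1), and the other with a scrambled siRNA. Each group was 1 library of messenger RNA made from 20 pooled embryos of 4 to 8 cells, amplified by 20 cycles of PCR.

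Cells make cholesterol from acetyl-CoA in a long series of steps. The early steps lead through mevalonate to farnesyl pyrophosphate, squalene synthase commits this precursor to sterols, and squalene is oxidised, closed into lanosterol and trimmed to cholesterol. The transcription factor encoded by Srebf2 activates most of these genes. It is held in the endoplasmic reticulum by Scap and Insig proteins while sterols are plentiful, and is carried by Scap to the Golgi, cut and released when sterols are scarce. Mouse oocytes make little cholesterol themselves and are supplied with sterol products by the cumulus cells around them, whereas the embryo after fertilisation is without those cells.

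The libraries held 12236615 (siDnmt1) and 11675483 (scrambled) counts, of which the ribosomal RNA precursor Rn45s took 37.3% and 29.9%. With 1 library per group no difference has a replicate check and no test was possible. Intervals below are 95% Clopper-Pearson intervals of counting error alone, and PCR copies are not independent molecules, so they are too narrow as a measure of the difference between embryos. In bulk samples, fewer cells of a type and less RNA per cell cannot be told apart. The targeted transcript, Dnmt1, had 687 counts in siDnmt1 and 847 in scrambled, 1.23-fold lower (1.11 to 1.37). Its log2 ratio was -0.30, and 38.3% of genes with a mean of 20 counts or more had a lower one. Dnmt1 thus lay between the lower and upper quartiles of those genes (-0.67 and 0.57). Pou5f1, a pluripotency factor of the early embryo, had 1489 and 2152 counts, the oocyte-derived gene Nlrp5 had 189 and 257, and the maternal factor Dppa3 had 70 and 194, whereas Sox2 had 0 in both. Of the 8 listed embryo and oocyte markers with a mean of 20 counts or more, 4 had log2 ratios above 0, among them Zp1 with 90 and 43 counts and Nanog with 40 and 23, and 4 had log2 ratios below 0. Log2 ratios of short transcripts ran low in this comparison. With the trend on length removed, that of Pou5f1 was 0.20 and that of Dppa3 -0.19. Those of Nlrp5 and Zp3 stayed below 0 (-0.42 and -0.62), while the median of the 8 was 0.37. Of the listed markers under that mean, Tcl1 had 0 and 33 counts, Ooep 0 and 15, Bmp15 3 and 19 and Zscan4d 0 and 6. Cdx2, also under it, went the other way with 8 and 3. Of 14 listed cumulus and granulosa cell markers, 11 had no count in either library, among them Fshr, Has2 and Ptx3. Amhr2 had 45 and 56 counts, Star 6 and 0 and Cyp11a1 2 and 0, and the list summed to 53 and 56.

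Promoter windows were available for 5 of the 7 genes in the RefSeq table on GRCm38.p6 (250 bases before to 50 bases after an annotated start). Sqle and Fdft1 had no entry. Each window was searched on both strands for the core of the site bound by the Srebf proteins (CACCCCAC), for a looser form of it (TCACNCCAC), and for the box bound by NF-Y (CCAAT), a factor that works beside them at sterol genes. Hmgcs1 is shown because it was the only one of the 5 with the core, and Dhcr7 because it had the highest ratio of counts between the libraries. The Hmgcs1 window lies on the plus strand at chr13:119690101-119690400. The Dhcr7 window, the third of 3 annotated starts, lies on the plus strand at chr7:143829964-143830263. Capitals mark the motifs, and ATTGG is the NF-Y box read on the other strand.
Hmgcs1: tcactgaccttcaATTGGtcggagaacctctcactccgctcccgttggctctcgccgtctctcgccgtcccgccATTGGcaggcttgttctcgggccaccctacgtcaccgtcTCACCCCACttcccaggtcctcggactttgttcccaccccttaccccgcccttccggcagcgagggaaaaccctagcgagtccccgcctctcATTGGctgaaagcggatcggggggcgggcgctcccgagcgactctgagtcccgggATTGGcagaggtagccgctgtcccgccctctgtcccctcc
Dhcr7: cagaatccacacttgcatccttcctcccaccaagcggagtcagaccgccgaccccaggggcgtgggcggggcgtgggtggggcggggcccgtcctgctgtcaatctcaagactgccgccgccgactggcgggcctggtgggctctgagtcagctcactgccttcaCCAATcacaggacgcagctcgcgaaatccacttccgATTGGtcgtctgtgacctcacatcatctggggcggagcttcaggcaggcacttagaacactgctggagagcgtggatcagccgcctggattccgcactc

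In the Hmgcs1 window the core and the looser form share the same bases, with the core beginning at position -136 from the start, and the NF-Y box occurs 4 times. The Dhcr7 window holds 2 NF-Y boxes, at positions -85 and -49, and neither form of the Srebf site. The other Dhcr7 windows held none of the motifs. Only exact matches were sought, so a window without a match may still hold a variant of the site. The NF-Y box was in a window of 4 of the 5 genes (Hmgcs1, Srebf2, Insig1 and Dhcr7) and in none of the 2 windows of Scap. Over genes with a window whose mean over both libraries was 20 counts or more, 43.6% held the NF-Y box, 3.66% the core and 1.46% the looser form. Among the listed enzymes from squalene synthase onward, 10 of 10 genes with a window held the NF-Y box. Of these 10, 0 held the core and 0 the looser form. The NF-Y box was in 6 of 7 genes of the mevalonate steps and 5 of 9 of Srebf control. Of neighbouring lists, it was in 8 of 10 genes of cholesterol uptake and trafficking and 8 of 12 fatty acid targets of the Srebf proteins. It was in 4 of 8 genes of efflux and esterification and 3 of 10 of other isoprenoid branches. The window of Insig1 held 38 CpG sites, that of Srebf2 30, that of Hmgcs1 26, and those of Scap 15 and 21. The Dhcr7 windows held 21, 4 and 21, and the median over windows of genes at or above that mean was 22, so that Insig1, Srebf2 and Hmgcs1 lay above it and the windows of Scap and Dhcr7 below. DNA methylation was not measured in these libraries.

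The enzymes were unlike each other, and the regulators spanned a narrower range around equality. Counting intervals of the ratio of siDnmt1 to scrambled were wide for Srebf2 (0.529 to 1.26) and Insig1 (0.727 to 1.46). Dhcr7 and Fdft1 had over 2-fold more counts in siDnmt1, Sqle had fewer, and Hmgcs1, Scap, Srebf2 and Insig1 differed by at most 1.22-fold. On the scale log2((siDnmt1 + 5)/(scrambled + 5)), used for all counts of genes past a threshold, the 4 enzymes ran from -0.75 to 1.31 and the 3 regulators from -0.26 to 0.28. Together the 7 genes held 2318 counts in siDnmt1 and 2134 in scrambled, or 302 and 261 per 1000000 counts other than Rn45s.

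**Figure D1:**
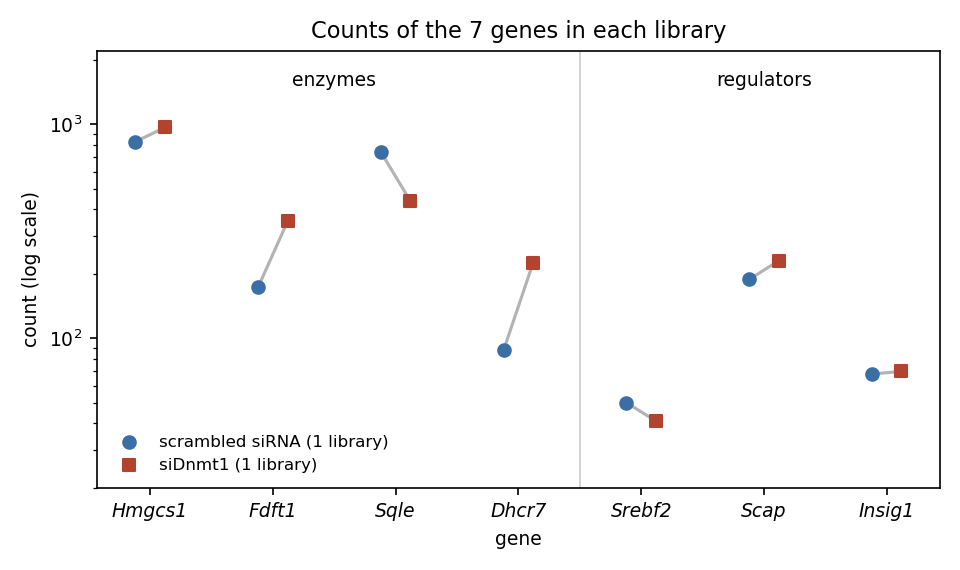
Counts of the 7 genes (log scale) in the scrambled library (circles) and the siDnmt1 library (squares). Enzymes are in pathway order on the left and regulators on the right, and each point is 1 library. Dhcr7 goes from 88 to 225 and Fdft1 from 173 to 351, Sqle goes from 740 to 437, and Insig1 stays at 68 and 70.

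Hmgcs1 encodes cytosolic HMG-CoA synthase, an enzyme of the early steps. It had 964 counts in siDnmt1 and 827 in scrambled, a ratio of 1.17 (1.06 to 1.28). It was the most abundant of the 7 per length in both libraries, with 278 counts per kb of its longest transcript in siDnmt1 and 239 in scrambled. Counts per kb of Hmgcs1 were 34.5 times those of Srebf2, the least abundant, in siDnmt1 (25.2 to 48.3) and 24.2 times in scrambled (18.2 to 32.9). Which transcript was present was not determined. Ratios per kb between genes, here and below, also carry the error of the length used, which these intervals leave out.

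Fdft1 encodes squalene synthase, the first enzyme committed to sterols. It had 351 counts in siDnmt1 and 173 in scrambled, 2.03-fold higher (1.69 to 2.45). Its log2 ratio was 1.0, on the 2-fold threshold itself, so the call turns on the pseudocount and the scaling. Exons of Fdft1 overlap those of Ctsb, a cathepsin gene on the opposite strand, by 774 bases in GENCODE M21. Ctsb had 551 and 711 counts, lower in siDnmt1, and whether counting used strand is not stated in the sources used here, so the share of Fdft1 counts from this overlap was not tested.

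Sqle encodes squalene epoxidase, the next enzyme and a second control point of the pathway. It had 437 counts in siDnmt1 and 740 in scrambled, 1.69-fold lower (1.502 to 1.91), the only one of the 7 with an interval wholly below equality. Fdft1 and Sqle act in succession, and their ratio shifted between the libraries. Counts per kb of Sqle were 1.03 times those of Fdft1 in siDnmt1 (0.894 to 1.19) and 3.54 times in scrambled (2.997 to 4.203).

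Dhcr7 encodes the reductase that turns 7-dehydrocholesterol into cholesterol, the last step of one branch. It had 225 counts in siDnmt1 and 88 in scrambled, 2.56-fold higher (1.99 to 3.31). Of the 7315 genes at or above a mean of 20 counts, 92.9% had a lower log2 ratio than Dhcr7 (1.31). Dhcr7 also appears in some lists of imprinted genes, which was not examined here, and counts do not separate the parental alleles. Annotated exons of Dhcr7, Sqle, Srebf2 and Insig1 overlapped no other gene, whereas Hmgcs1 and Scap overlapped the noncoding units Gm48342 and 5830462I19Rik on the opposite strand, by 557 and 985 bases.

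Srebf2, the transcription factor gene, was the least abundant of the 7 in both libraries. It had 41 counts in siDnmt1 and 50 in scrambled, 1.22-fold lower, with an interval that included equality (0.791 to 1.89). Its relative Srebf1, which acts more on fatty acid genes, had 655 and 782 counts, 1.19-fold lower (1.07 to 1.33). Per kb, Srebf1 stood 18.9 times above Srebf2 in siDnmt1 (13.8 to 26.5) and 18.5 times in scrambled (13.9 to 25.1), so this ratio differed less between the libraries than its counting error.

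Scap encodes the escort of the Srebf proteins and had 230 counts in siDnmt1 and 188 in scrambled, a ratio of 1.22 (1.005 to 1.49). With the libraries scaled to equal totals its interval included equality (0.959 to 1.42). Insig1, which retains Scap in the endoplasmic reticulum, had 70 counts in siDnmt1 and 68 in scrambled, a ratio of 1.03 (0.727 to 1.46), and its direction turned with equal totals (log2 ratio -0.02). Scap stood 2.10 times above Insig1 per kb in siDnmt1 (1.60 to 2.78) and 1.76 times in scrambled (1.33 to 2.36).

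Per length, the order in the siDnmt1 library was Hmgcs1 (278 counts per kb), Sqle (97.8), Fdft1 (94.9), Dhcr7 (79.9), Scap (54.4), Insig1 (25.95) and Srebf2 (8.08). In the scrambled library it was Hmgcs1 (239 counts per kb), Sqle (166), Fdft1 (46.8), Scap (44.5), Dhcr7 (31.3), Insig1 (25.2) and Srebf2 (9.85). Only Scap and Dhcr7 exchanged places. The exact Poisson intervals of neighbours overlapped for Sqle and Fdft1 and for Fdft1 and Dhcr7 in siDnmt1. In scrambled they overlapped for Fdft1 and Scap, Scap and Dhcr7, and Dhcr7 and Insig1. The mean level of Hmgcs1 was above 86.3% of the genes compared, that of Sqle above 77.0%, and that of Srebf2 above 12.5%.

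All 7 genes passed the mean of 20 counts, and 2 of them (Dhcr7 and Fdft1) were at least 2-fold higher in siDnmt1. Over all 7315 genes compared, 12.5% were. Of the 7 genes, 0 were at least 2-fold lower, against 16.7% of all genes. By the counting interval, 4 (Hmgcs1, Scap, Dhcr7 and Fdft1) lay above equality and 1 (Sqle) below, against 35.4% and 37.0% of all genes. The median log2 ratio of the 7 was 0.22, and that of all genes was -0.02. The middle 50% of all genes spanned -0.67 to 0.57, and 4 of the 7 genes (Hmgcs1, Srebf2, Scap and Insig1) lay inside it.

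**Figure D2:**
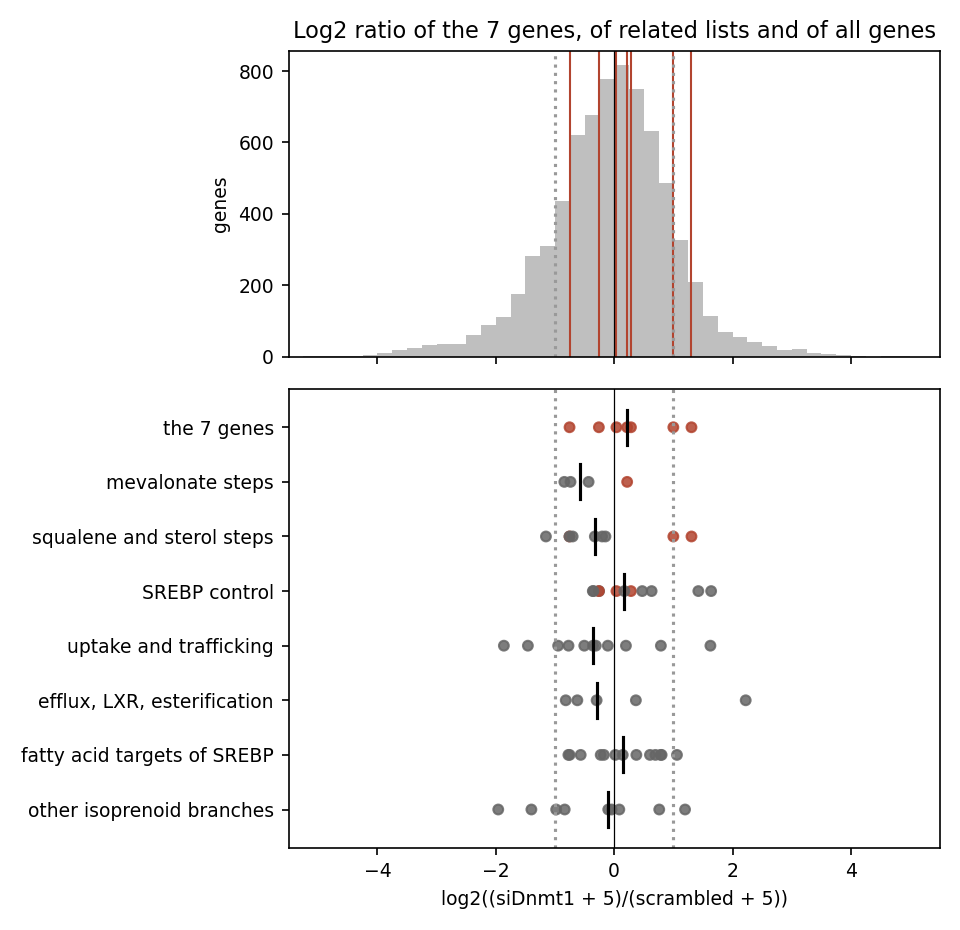
Upper panel, number of genes by log2((siDnmt1 + 5)/(scrambled + 5)) for the 7315 genes compared, with the 7 genes as red lines; lower panel, each list's genes as points (the 7 genes in red) and their median as a bar, with dotted lines at 2-fold. The 7 genes spread from -0.75 to 1.31 with a median of 0.22, while the mevalonate list has its median at -0.58.

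The other synthesis genes that passed the filter on low counts lay lower than Dhcr7 and Fdft1. Of 22 listed synthesis genes, 13 passed the mean of 20 counts, and their median log2 ratio was -0.43. Only Dhcr7 and Fdft1 were at least 2-fold higher, and 1, Sc5d, was at least 2-fold lower, against 12.5% and 16.7% of all genes. Of the 13, the 9 that are not among the 7 genes all had log2 ratios below 0, against 3718 of the 7315 genes compared. The 9 stayed below 0 under each scaling tried, but a scaling shifts all genes by a common factor, here 0.954 to 1.07. Without the filter there were 18 synthesis genes outside the 7, of which 14 lay below 0. The counting interval lay below equality for 7 of the 9, against 37.0% of all genes. With 1 library per group this direction has no replicate. With the trend on transcript length removed, all 9 stayed below 0, and their median log2 ratio went from -0.70 to -0.38. The log2 ratios of the short transcripts of Mvd and Ebp went from -0.74 to -0.37 and from -0.70 to -0.27. That of Sc5d went the other way, from -1.15 to -1.28.

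Among the early enzymes, Mvd, the decarboxylase that yields isopentenyl pyrophosphate, had 25 counts in siDnmt1 and 45 in scrambled, 1.80-fold lower (1.08 to 3.06). Fdps, farnesyl pyrophosphate synthase, had 150 and 204 counts, 1.36-fold lower (1.096 to 1.69). Hmgcs1 was the only gene of the mevalonate steps among those compared with a log2 ratio above 0.

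Lss, which closes the ring to lanosterol, had 437 counts in siDnmt1 and 504 in scrambled, 1.15-fold lower (1.01 to 1.31). Lbr, the lamin B receptor, which is also a sterol reductase, had 893 and 1510 counts, 1.69-fold lower (1.56 to 1.84), close to the fold of Sqle. Ebp, the sterol isomerase, had 59 and 99 counts, 1.68-fold lower (1.204 to 2.36). Sc5d, the desaturase that makes the substrate of Dhcr7, had 13 and 35 counts, 2.69-fold lower (1.39 to 5.55), so that the genes of these successive steps lay in opposite directions. Hsd17b7, a sterol ketoreductase, had 79 and 88 counts, and its interval included equality. The 9 synthesis genes under the mean (Acat2, Mvk, Pmvk, Idi1, Ggps1, Cyp51, Tm7sf2, Msmo1 and Nsdhl) had 0 to 26 counts in siDnmt1 and 1 to 14 in scrambled. By the counting interval 3 of these differed from equality, and not in one direction. Ggps1, which makes geranylgeranyl pyrophosphate, had 26 and 11 counts, 2.36-fold higher (1.13 to 5.30), while Pmvk had 1 and 14 and Idi1 0 and 6, both lower.

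**Figure D3:**
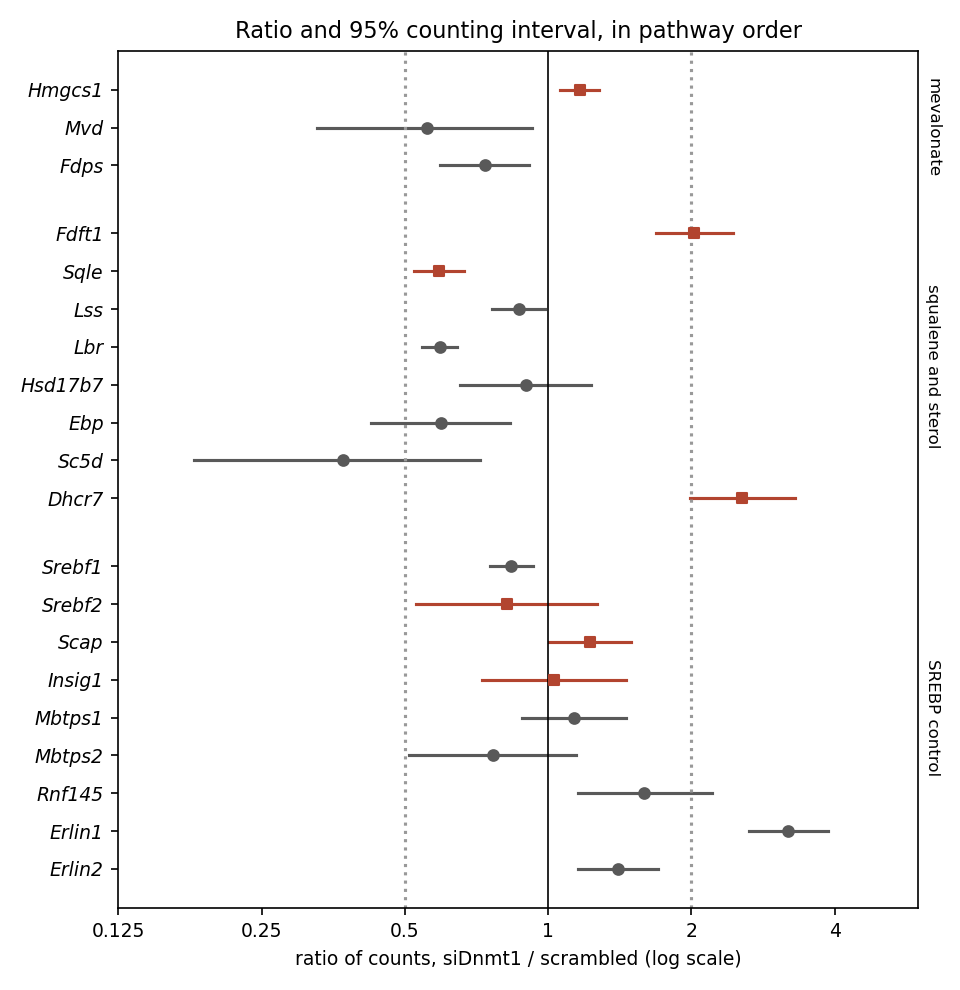
Ratio of counts (siDnmt1 over scrambled, log scale) with its 95% counting interval for synthesis and control genes whose mean is 20 counts or more, in pathway order; red squares are the 7 genes, grey circles the others, and dotted lines mark 2-fold. Fdft1 and Dhcr7 stand at 2.03 and 2.56 among enzymes that otherwise lie near or below 1, and Erlin1 stands highest of the control genes shown.

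Of 13 listed genes of Srebf control, 11 passed the mean of 20 counts, with a median log2 ratio of 0.17. None was at least 2-fold lower (0 of 11, against 16.7% of all genes), and 2 were at least 2-fold higher, a share near the 12.5% of all genes. Erlin1, a membrane protein of the endoplasmic reticulum that takes part in sterol-linked degradation, had 462 counts in siDnmt1 and 145 in scrambled, 3.19-fold higher (2.64 to 3.87).

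Erlin2, the partner of Erlin1, was 1.40-fold higher (1.15 to 1.70), and Rnf145, a ubiquitin ligase, 1.59-fold higher (1.15 to 2.21). The proteases that cut the Srebf proteins were nearer to equality. Mbtps1 had 137 and 121 counts and Mbtps2 had 46 and 60, and both intervals included equality. The regulators Srebf2, Scap and Insig1 lay below Erlin1, Rnf145 and Erlin2 in log2 ratio. Of the listed control genes under a mean of 20 counts, Insig2, a relative of Insig1, had 17 and 4 counts. It was 4.25-fold higher in siDnmt1 (1.39 to 17.4). Rnf139 had 13 and 11 counts, and its interval included equality.

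For each of the 7 genes the gene with the closest log2 ratio was sought among 55 others of the listed lipid genes, over 2 libraries. These were Mylip for Hmgcs1 (0.20 against 0.22), Scd2 for Sqle (-0.75 for both) and Srebf1 for Srebf2 (-0.25 against -0.26). For Scap it was Soat1 (0.37 against 0.28), for Insig1 Scd1 (0.02 against 0.04), for Dhcr7 Pggt1b (1.198 against 1.31) and for Fdft1 Pnpla3 (1.06 against 1.0). With 2 libraries a closeness of this kind is a likeness of 1 ratio only.

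Log2 ratios of short transcripts were lower in general in this comparison, with a median of -0.53 for genes whose longest transcript was at most 2330 nt. The 7 genes have longest transcripts of 2697 to 5077 nt, outside that range. The trend at their lengths ran from -0.09 (Insig1) to 0.13 (Srebf2). With it removed, the log2 ratio of Dhcr7 was 1.39, that of Fdft1 0.99 and that of Sqle -0.86.

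**Figure D4:**
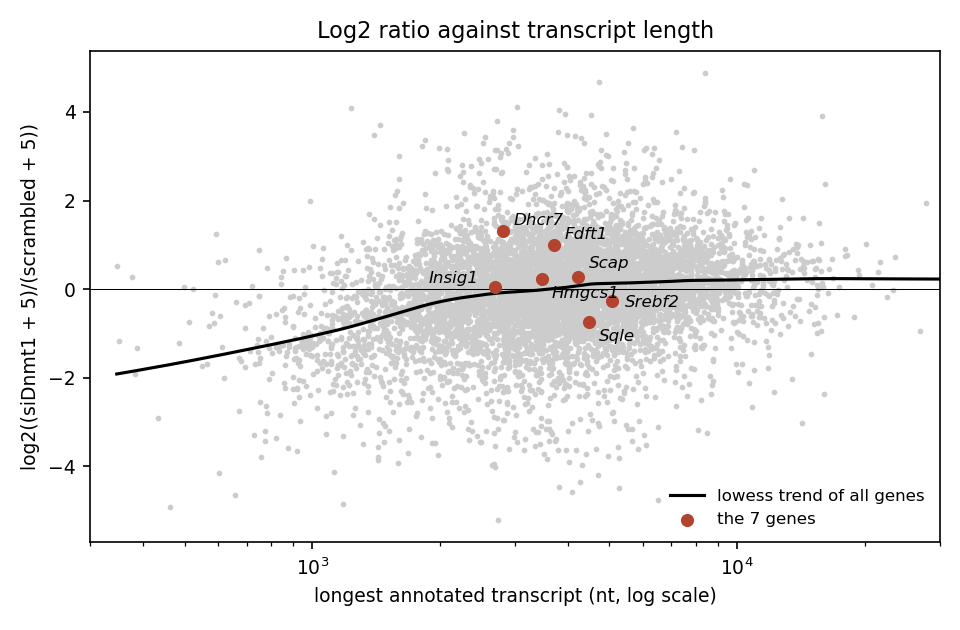
Log2((siDnmt1 + 5)/(scrambled + 5)) against the longest annotated transcript (nt, log scale) for genes whose mean is 20 counts or more (grey points), with the lowess trend (line) and the 7 genes (red). The 7 genes sit where the trend is close to 0, between 2697 and 5077 nt.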

How the data were processed

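Messenger RNA was sequenced from 1 siDnmt1 and 1 scrambled library. The deposited table holds counts per gene, which the authors describe as DESeq2-normalised. Trim Galore, HISAT2, HTSeq, DESeq2 and mm9 are named in the submitters' processing notes, without the annotation or the strand and multi-mapping settings. The columns skipped 0 whole numbers from 1 to 59, whereas copies scaled by 1.02 to 1.2 skipped at least 1, and no value from 2 to 30 exceeded 1.29 times the mean of its neighbours, against at least 1.82 in copies scaled by 0.8 to 0.98. The values were therefore used as unscaled counts, to within about that resolution. Spreadsheet dates stood in place of 27 gene names. All value columns were used.

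The log2 ratio had a pseudocount of 5, and genes whose mean was 20 counts or more were compared. With 1 library per group no count model was fitted and no p-value was computed. Levels per kb use the longest GENCODE M21 transcript (found for 99.4% of genes compared). That annotation is on GRCm38, so mm9 coordinates are not given. The lowess span was 0.3. On simulated Poisson counts with 200 changed genes, the 2-fold rule recovered 49.0% of genes changed 2-fold and 100.0% of those changed 4-fold. In these runs 5 and 2 unchanged genes were called. The simulated counts held counting error alone, without PCR copies or differences between embryo pools. They therefore do not give the error of the rule in these libraries.

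All 7 genes were named, with the synthesis and control genes that passed this mean (some are not reported here), the 2 highest and 2 lowest of each neighbouring list, and up to 3 markers per list by count. Ctsb, Zp1, Zp3, Nanog, Tcl1, Ooep, Bmp15, Zscan4d, Cdx2, Ggps1, Pmvk, Idi1 and the markers without counts were named after their values were seen. The same holds for Insig2 and Rnf139. The members, lists and motifs were chosen with earlier results of these data known. Alternatives were other pseudocounts, filters, thresholds, scalings (equal totals with and without Rn45s, a median of 0, edgeR TMM, DESeq2 size factors) and trends removed. Software was R 4.3.3 with edgeR 4.0.16 and DESeq2 1.42.0, and Python 3.11.15 with scipy 1.17.1, statsmodels 0.14.6, matplotlib 3.10.9, pandas 2.3.3 and numpy 2.4.6.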

Additional observations from a re-analysis of the deposited data

How the results depend on the processing

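The log2 ratios of the 7 genes stayed within their counting intervals under the 9 alternatives that apply to a single gene, of which the DESeq2 size factors were 1 for both libraries and changed nothing: Dhcr7 from 1.18 to 1.40, Fdft1 from 0.93 to 1.09 and Sqle from -0.86 to -0.66. Insig1 turned below 0 with equal totals (-0.02). The number of the 7 genes, and of the synthesis genes, at least 2-fold higher was 2 as reported. Since Fdft1 lay on the threshold, the number was 1 with a pseudocount of 20, with equal totals and with the length trend removed. The shares of all genes higher were then 9.28%, 11.1% and 12.9%. With a 4-fold threshold the number was 0, against 2.64% of all genes. With a 1.5-fold threshold the number higher stayed at 2 of the 7 genes and 2 of 13 synthesis genes, against 24.7% of all genes. At that threshold, 1 of the 7 genes (Sqle) was lower in place of 0, and 6 synthesis genes were lower in place of 1. The share of all genes that were lower went from 16.7% to 27.97%. With no filter, 3 of 22 synthesis genes were at least 2-fold lower, against 9.06% of all genes. The number lower was 0 with a mean of at least 100 counts, a pseudocount of 20, the trend on mean count removed or a 4-fold threshold. The shares of all genes lower were then 11.4%, 12.8%, 15.4% and 4.51%. Leaving out a library was not possible with 1 per group, and no paired analysis was possible because each group has a single library. Genes such as Sc5d and Srebf2, with 13 to 50 counts in a library, are limited by depth.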

Other observations

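Genes that move cholesterol between compartments were examined beside those that make it. Of 16 listed uptake and trafficking genes, 11 passed the mean of 20 counts, with a median log2 ratio of -0.36. By the 2-fold rule 1 of the 11 was higher and 2 were lower, against 12.5% and 16.7% of all genes. Stard4, a sterol carrier, had 66 counts in siDnmt1 and 18 in scrambled, 3.67-fold higher (2.15 to 6.56), and Npc1, which exports cholesterol from lysosomes, had 3006 and 1737, 1.73-fold higher (1.63 to 1.84). Lrp1, a lipoprotein receptor, had 144 and 404 counts, 2.81-fold lower (2.31 to 3.42), and Gramd1a, a sterol transporter at membrane contacts, had 6 and 35, 5.83-fold lower (2.43 to 17.0). Npc2, which hands cholesterol to Npc1 in the lysosome, was chosen after its values were seen. It had 144 and 282 counts, 1.96-fold lower (1.60 to 2.41), opposite to its partner.

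The 13 measured fatty acid genes activated by the Srebf proteins had their median log2 ratio at 0.15. By the 2-fold rule 1 of the 13 was higher and 0 were lower, against 12.5% and 16.7% of all genes. Pnpla3, a lipid hydrolase gene, was 2.15-fold higher (1.66 to 2.80) and Elovl5, a fatty acid elongase, 1.85-fold higher (1.202 to 2.90), while Acss2, an acetyl-CoA synthetase, was 1.79-fold lower (1.22 to 2.66) and the desaturase Scd2 1.72-fold lower (1.32 to 2.26). Over 5 genes of efflux, LXR signalling and esterification the median was -0.30. The transporter gene Abcg4 had 51 and 7 counts (7.29-fold higher, 3.29 to 19.0), Soat1, which esterifies cholesterol, was 1.30-fold higher (1.055 to 1.60), and the LXR gene Nr1h3 had 16 and 32 counts, with the transporter gene Abca1 at 21 and 35.

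The 9 measured genes that use isoprenoids for other ends had their median log2 ratio at -0.10. By the 2-fold rule 1 of the 9 was higher and 2 were lower, against 12.5% and 16.7% of all genes. The subunit genes of the enzyme that prenylates Rab proteins were both lower, Rabggtb at 38 counts against 162 (4.26-fold, 2.98 to 6.24) and Rabggta at 151 against 406 (2.69-fold, 2.23 to 3.26). Pggt1b, a subunit of another protein prenyltransferase, was 2.43-fold higher (1.71 to 3.51), and Nus1, which takes part in dolichol synthesis, had 34 and 18 counts, 1.89-fold higher (1.04 to 3.55). With the length trend removed, 2 of these medians turned, to -0.06 for the fatty acid genes and 0.07 for the isoprenoid genes, and that of the efflux list was -0.01. The log2 ratio of Pnpla3 went from 1.06 to 1.84. These values have no replicate check.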
